A study of Mus musculus with 70 samples.

Results

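Sox1, Sox2, Sox21, Sox4, Sox11 and Sox12 are genes of the SoxB and SoxC groups of the Sox family of transcription factors. They were taken by name, 6 of the 20807 autosomal protein-coding genes in the annotation, and each gene was represented by the 10-kb bin that holds its transcription start site (TSS). H3K4me3 PLAC-seq joins proximity ligation of chromatin with pull-down of the promoter mark H3K4me3, and an interaction here is a pair of 10-kb bins that the authors called from those reads with 1 end in the TSS bin. Whole dissected tissues of C57BL/6N mice were assayed. At E12.5 the neural ones were forebrain (FB), midbrain (MB), hindbrain (HB) and neural tube (NT), and the non-neural ones were liver (LV), limb (LM) and craniofacial prominence (CF). FB was also taken on 5 later stages, daily from E13.5 to E16.5 and at birth (P0). The labels and methods name no mutation or treatment in any group. Each of these 12 tissue-stages has 2 biological replicates, and CTCF ChIP-seq came from the same tissue-stages. There are 24 PLAC-seq libraries among the 70 of the series, beside 23 for CTCF and 23 inputs.

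The SoxB1 factors Sox1 and Sox2 maintain neural progenitors, and Sox2 also acts in other stem and epithelial cells. Sox21 belongs to SoxB2 and mostly represses transcription where SoxB1 factors activate it. The SoxC factors Sox4, Sox11 and Sox12 are used in newly born neurons, where they activate neuronal genes, and in mesenchyme of the limb and face. Genes of this kind are often controlled by enhancers far away in gene-poor DNA, and promoter-centred interactions show which distant bins a TSS bin touches more often than the model expects.

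The PLAC-seq libraries held between 11396 and 63868 called interactions, with LV (15016 and 11396) and LM replicate 1 (12461) at the low end and both P0 libraries (63868 and 42973) at the high end. The number at a gene was therefore scaled to the median library total of 25872 interactions, and called the scaled number. The authors also pooled the replicates of each tissue-stage, sampled the 12 pooled sets down to the same number of read pairs per chromosome and called again. That number counts pairs with an H3K4me3 peak of the same tissue at an end, and the called interactions still differed, with 21945 in LV and 51264 to 79677 elsewhere. A pair of bins that was not called carries no value, so a missing partner lies under the threshold or was not tested. In whole tissue, fewer cells that use a promoter and fewer contacts per cell cannot be told apart. The summed pooled numbers of genes that mark each tissue were taken relative to all interactions of the pooled set. This share was highest in the marked tissue for FB, MB, NT, LM and CF, by a small margin for MB and LM. The HB markers were highest in NT, not in HB. Of the LV markers, Afp had 1 interaction in LV, and Alb and Hnf4a had 0.

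The 6 genes had 307 interactions together in FB at E12.5, 213 in LM and 17 in LV (pooled calls). Sox11 and Sox4 were among the most connected genes of the genome. Sox11 ranked between 2 and 16 among all genes in the 11 tissue-stages other than LV, and Sox4 between 11 and 43. Sox1, Sox2 and Sox21 had many interactions in neural tissue, fewer in CF and hardly any in LM and LV. Sox12 had at most 4 interactions in any pooled set. No other protein-coding gene has a TSS in any of the 6 bins, although the Sox2 bin also holds a TSS of the noncoding gene Sox2ot, the Sox21 bin one of Gm4675 and the Sox1 bin those of Gm25239 and Gm45560.

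**Figure D1:**
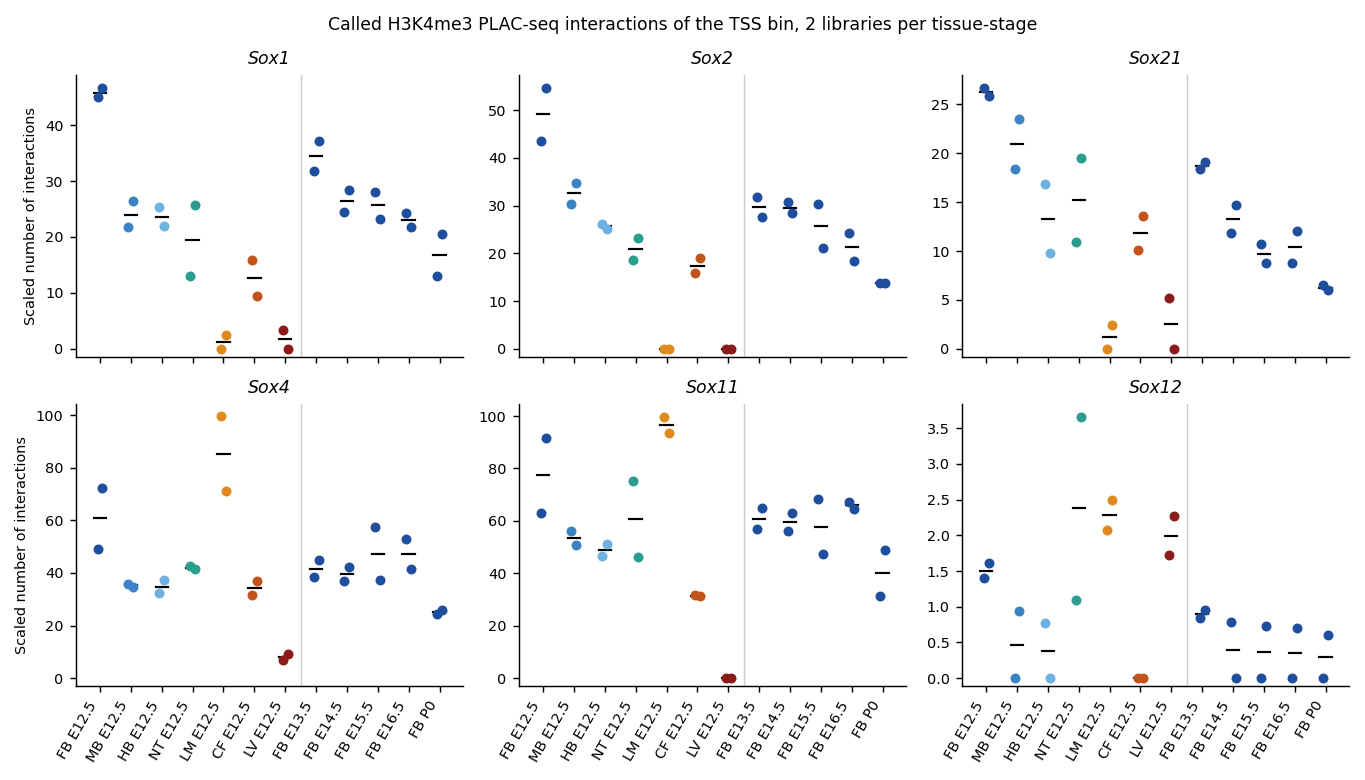
Scaled number of interactions of the TSS bin (y axis) in each of the 24 PLAC-seq libraries by tissue-stage (x axis), 1 panel per gene. Points are libraries, black bars are means of 2, and the grey line separates E12.5 tissues from the later FB stages. Sox1, Sox2 and Sox21 are near 0 in LM and LV, whereas Sox4 and Sox11 are highest in LM and lowest in LV.

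Sox1 lies at chr8:12395295-12400126 on the plus strand (mm10, as all coordinates here), and its bin is chr8:12390001-12400000. At E12.5 its called interactions in replicates 1 and 2 were 32 and 29 in FB, 20 and 28 in MB, 33 and 27 in HB, and 12 and 21 in NT. CF had 11 and 7, LM had 0 and 2, and LV had 2 and 0. Scaled for library size, both FB libraries (45.0 and 46.7) stood above every other library at E12.5, and LM and LV did not separate from each other. In the later FB stages the called numbers stayed between 27 and 39, while all later FB libraries held more interactions in all than those of E12.5. The mean scaled numbers in FB fell from 45.8 ± 1.21 at E12.5 to 34.5 ± 3.76 at E13.5 and 16.7 ± 5.31 at P0 (SD, n = 2 each).

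The 347 pooled Sox1 interactions fell on 56 distinct partner bins, none farther than 490 kb. Of these, 29 bins formed 3 stretches of neighbouring bins that were each called in at least 6 tissue-stages, and 75.2% of the interactions fell in them. These lay 450 to 330 kb upstream, 300 to 210 kb upstream and 140 to 190 kb downstream, and the upstream ones overlap no protein-coding gene. The strongest upstream pair, at -400 kb, was called in 11 of 12 pooled sets. Its observed/expected ratio ran from 4.87 in LM to 11.6 in FB at E15.5, and in the 12 FB libraries from 6.76 to 10.2. LV had no pooled call for it, although LV replicate 1 had one at 5.41. The pair expected 13.3 read pairs in FB at E12.5 and 2.88 in LM, so the local coverage moved with the tissue, and its part in the number of calls was not tested.

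Downstream of Sox1, the pair at +180 kb was called in all 12 pooled sets with ratios from 2.66 to 5.23. That bin holds the TSS of Spaca7, a sperm acrosome gene, the partner gene of Sox1 with the most tissue-stages. Tubgcp3, a subunit of the microtubule-nucleating complex, followed with 3 tissue-stages. The neighbouring pair at +170 kb was called in 11 of 12 sets. CTCF was bound both at the Sox1 TSS bin and in the +170 kb bin in all 12 tissue-stages, and the sequences at these ends are shown because their motifs face each other. Capitals mark the 19-base motif, read 5′ to 3′ on the strand that carries it.
Sox1 TSS bin, chr8:12391756-12391774, plus strand: gtggCGGCCAGCAGACGGCGATCgcgg
Sox1 +170 kb bin, chr8:12561579-12561597, minus strand: cctgTGAACGGCAGAGGGCGCCCtgct
The TSS bin site lies 3530 bases upstream of the TSS, within the noncoding transcript Sox1ot and in no exon. Its peak had 6.58-fold enrichment over input in LV and up to 28.8-fold elsewhere. The site in the +170 kb bin lies in an intron of the noncoding gene D630011A20Rik and reached 12.1- to 35.3-fold. The same bin holds another site on the plus strand, chr8:12564692-12564710, also bound in 12 tissue-stages, with a lower motif score.

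Sox2 lies at chr3:34650405-34652461 on the plus strand, with its TSS close to the left edge of the bin chr3:34650001-34660000. Its E12.5 libraries had 31 and 34 interactions in FB, 28 and 37 in MB, 34 and 31 in HB, and 17 and 19 in NT. CF had 11 and 14, and all 4 libraries of LM and LV had 0. The pooled set of LM held 5 interactions, each of them also called in FB, and that of LV held 0. No gene with 0 calls can be said to lack contacts, since weaker pairs are not listed. FB again stood apart from the next tissue, with scaled numbers of 43.6 and 54.7 against 30.3 and 34.8 in MB. In FB the pooled numbers stepped down at each stage: 67, 59, 56, 50, 41 and 37 from E12.5 to P0.

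Sox2 had 107 distinct partner bins, of which 77 were called in neural sets only, and none was called in all 12. Over all TSS bins, 102306 of 180478 distinct interactions were called in neural sets only, and 1.42% in all 12. Most lay downstream, and in every tissue-stage at most 40.5% were upstream. Stretches 410 to 470, 650 to 720 and 810 to 850 kb downstream recurred in up to 11 tissue-stages each and overlap no annotated protein-coding gene or lincRNA. The highest single ratio of the 6 genes at E12.5, 22.0 in HB, was that of Sox2 with the bin at +830 kb, although Sox11 or Sox4 pairs were stronger in MB, NT, LM and CF. Its pooled ratio was 15.8 in FB, 18.7 in MB, 22.0 in HB, 16.7 in NT, 11 in LM and 10.9 in CF, with no call in LV. Counts of read pairs behind these ratios were 110 in FB and 18 in LM, against 6.97 and 1.64 expected.

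The +830 kb pair was chosen for its high ratio, so its values over FB stages are a description. Replicates 1 and 2 gave 13.8 and 15.1 at E12.5, 15.9 and 12.7 at E13.5, and 12.5 and 12.4 at E14.5. From E15.5 on they gave 18.9 and 22.8, then 17.5 and 20.1 at E16.5, and 24.3 and 21.7 at P0. The ratios of the 6 later libraries thus lay above those of the 6 earlier ones, while the number of Sox2 interactions went down. The pooled read pairs did not rise from E12.5, with 110, 61, 68, 79, 74 and 81 at the 6 stages. The expected numbers were 6.97, 4.52, 5.04, 3.36, 3.73 and 2.97, and their part in the higher ratios was not tested. The ratio of the pair at +690 kb went the other way, from 9.43 and 9.09 at E12.5 to 3.75 in replicate 1 at P0 and no call in replicate 2. The pair at +450 kb had 10.2 and 8.56 at E12.5, 13.4 and 13 at E15.5, and 9.7 and 5.61 at P0, with no single direction.
The downstream CTCF sites of Sox2 at +830 and +450 kb are shown because they lie in the bins of 2 of its strongest pairs and were bound in all 12 tissue-stages, LV included, where neither pair was called.
Sox2 +830 kb bin, chr3:35482514-35482532, minus strand: gtacAGGCCACTAGGTGGCACTAttta
Sox2 +450 kb bin, chr3:35103428-35103446, minus strand: taaaGTTTCACCAGGGGGCGCTCccac
Both sites are intergenic. Their peaks reached 11.8- to 46.5-fold at +830 kb (13.2-fold in LV) and 16.9- to 39.7-fold at +450 kb (22.6-fold in LV). The Sox2 TSS bin itself was bound only in FB at E15.5, through a peak of 3.38-fold, and in no tissue-stage with the second list of peaks or when the peak summit replaced the midpoint.

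Few Sox2 partner bins hold another promoter. Ccdc39, which is needed to assemble motile cilia, was joined to Sox2 in 4 tissue-stages at -810 kb with ratios of 3.45 to 4.02. Fxr1, an RNA-binding protein gene, was joined in 3, and Dnajc19, a mitochondrial import gene, in 2. Partners called at both E12.5 and E13.5 of FB and at neither E16.5 nor P0 numbered 8 for Sox2, of which 6 lay downstream. Partners with the opposite timing numbered 2, both upstream.

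Sox21 lies at chr14:118233232-118237030 on the minus strand. Its E12.5 libraries had 19 and 16 interactions in FB, 17 and 25 in MB, 22 and 12 in HB, and 10 and 16 in NT. CF had 7 and 10, LM 0 and 2, and LV 3 and 0. The neural and CF libraries overlapped, and only LM and LV stood at or near 0. In FB the mean scaled number fell from 26.2 ± 0.669 at E12.5 to 6.25 ± 0.326 at P0 (SD, n = 2), and the pooled number from 33 to 17.

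Sox21 was the most one-sided of the genes, with 96.9 to 100% of its interactions upstream in every tissue-stage. Of its 45 partner bins, 19 formed stretches 280 to 180 and 370 to 300 kb upstream, which held 72.1% of the 244 pooled interactions. Both stretches overlap Abcc4, a gene for an organic anion exporter. An Abcc4 TSS bin was a partner in 9 tissue-stages, with ratios of 2.07 to 4.29. The other named partner, the claudin gene Cldn10, was called once. The pair at -360 kb was called in all 12 pooled sets, from 4.28 in FB at E13.5 to 6.97 in FB at E12.5, and in LV at 6.24 with 22 read pairs. It is shown with its CTCF site because it is 1 of the 2 Sox21 partners found in every tissue-stage.
Sox21 -360 kb bin, chr14:118591695-118591713, minus strand: acacTGAGCACCAGGGGGCAGCGtgag
The site lies in an Abcc4 intron and was bound in 12 tissue-stages at 16.8- to 42.4-fold. The Sox21 TSS bin was bound in 7 tissue-stages, by weaker peaks of at most 5.05-fold at 4 different sites, and in 4 tissue-stages with the second list of peaks.

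**Figure D2:**
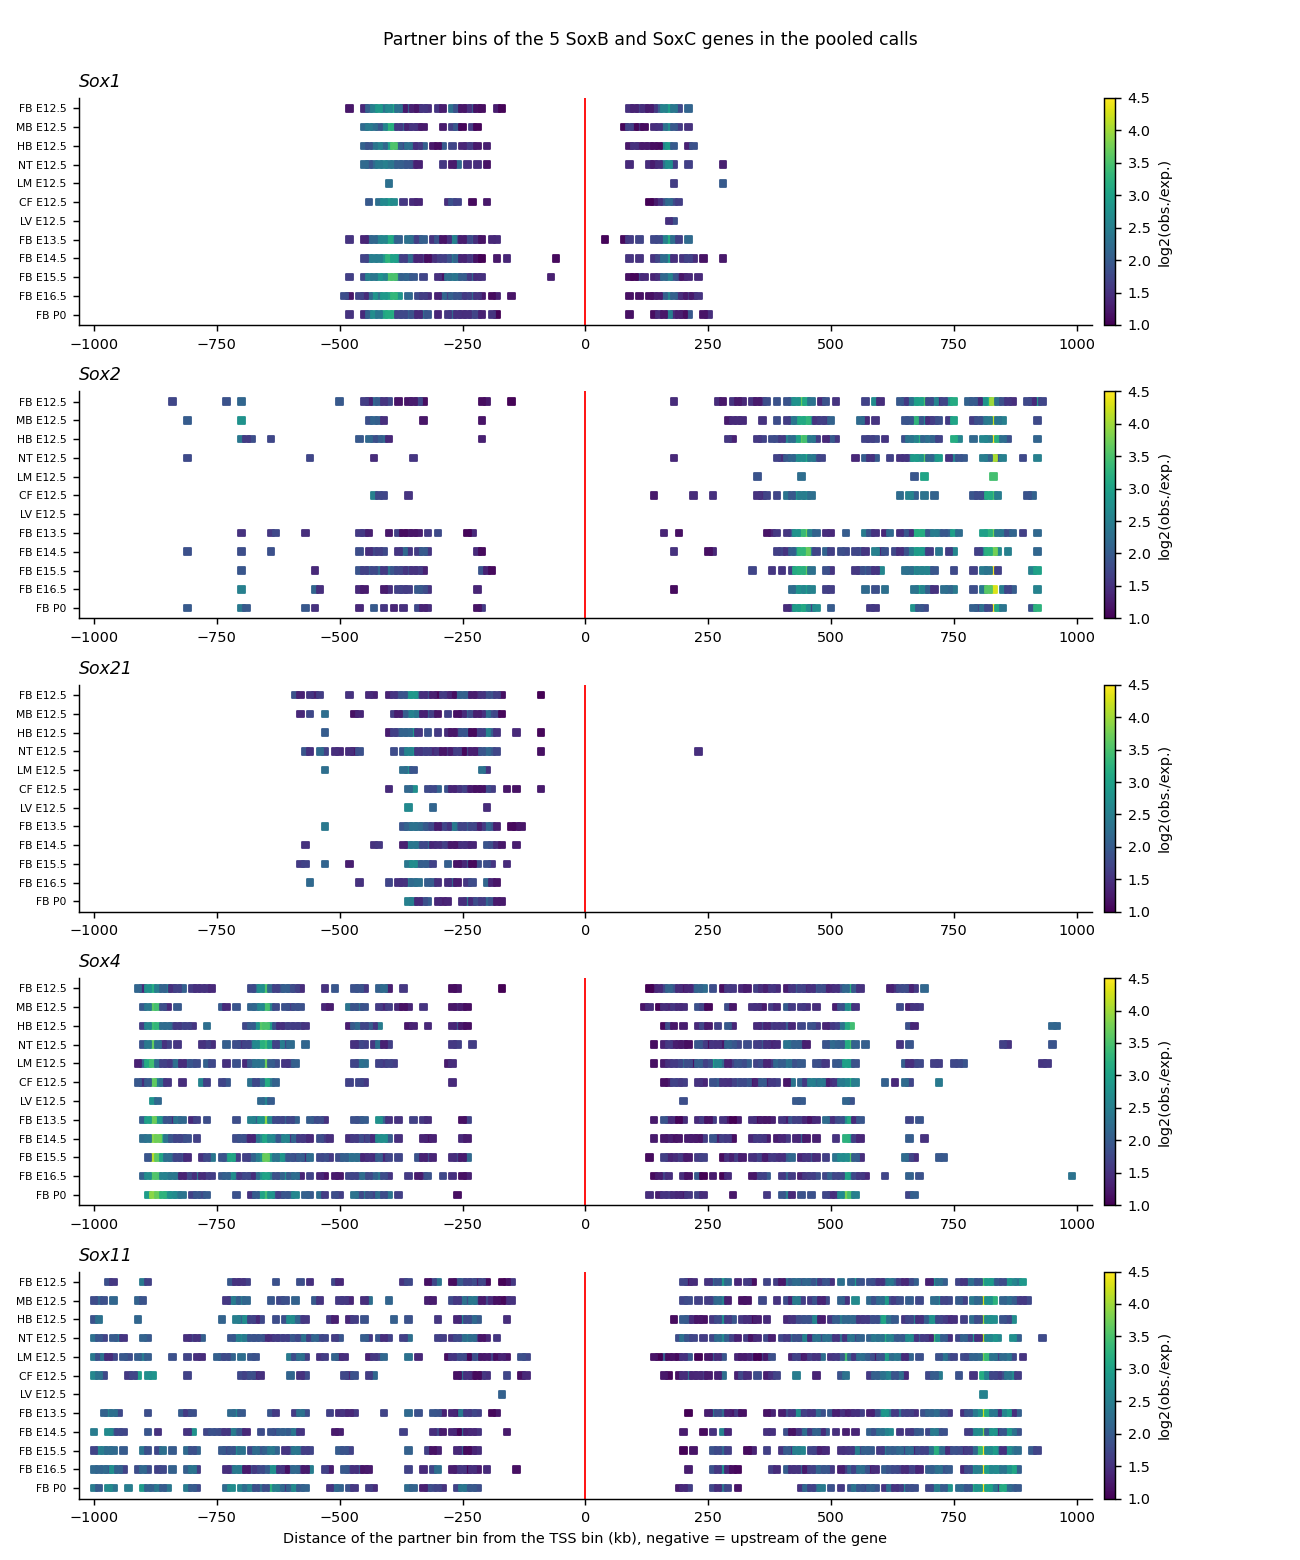
Partner bins of Sox1, Sox2, Sox21, Sox4 and Sox11 in the 12 pooled sets (rows), by distance from the TSS bin in kb (x axis, negative is upstream); colour is log2 of the observed/expected ratio. Sox21 partners are almost all upstream, those of Sox4 and Sox11 reach close to 1000 kb on both sides, and LV rows hold few points.

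Sox4 lies at chr13:28948919-28953713 on the minus strand. Its E12.5 libraries had 35 and 45 interactions in FB, 33 and 37 in MB, 42 and 46 in HB, and 39 and 34 in NT. LM had 48 and 57, CF 22 and 27, and LV 4 and 4. Unlike the SoxB genes, Sox4 was as connected in LM as in FB, with 84 pooled interactions in each, and 66 of these partner bins were shared. LV was below the other 6 tissues without overlap, at scaled numbers of 6.89 and 9.08 against a lowest value of 31.6 elsewhere. All 10 pooled Sox4 partners in LV were also partners in FB at E12.5.

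The 136 Sox4 partner bins spread over both sides up to 990 kb, and 8 of them were called in all 12 pooled sets, which is 5.88% against 1.42% of all interactions of TSS bins. The 12 recurrent stretches included 6 upstream ones, and each of those overlaps Cdkal1, a tRNA-modifying enzyme gene that neighbours Sox4. The Cdkal1 TSS bins were partners in 9 tissue-stages, with ratios of 2.62 to 4.7. The pair at -880 kb was called in every pooled set, at 9.02 in FB, 12.1 in MB, 10.6 in HB, 12.6 in NT, 10.9 in LM, 12.5 in CF and 6.96 in LV at E12.5. Later FB ratios were 13.1, 14.6, 17.5, 11.7 and 14.9. The expected count in LV was 2.15 read pairs against 4.31 to 6.1 in the other E12.5 tissues. At -650 kb the pair was also called in all 12 sets, from 6.11 in LV to 15.1 in FB at E13.5.
CTCF was bound at the Sox4 TSS bin and in the -650 kb bin in all 12 tissue-stages, and the motifs at these ends face each other.
Sox4 TSS bin, chr13:28957962-28957980, plus strand: gaggCAGCCGCCAGGTGGCAGCGctga
Sox4 -650 kb bin, chr13:29604440-29604458, minus strand: accgAGTCCAGGAGAGGGCAGCAgcgc
The TSS bin site is intergenic, 4258 bases upstream of the TSS, and its peaks reached 22.3- to 46.1-fold, with 37.8-fold in LV. The site in the -650 kb bin lies in a Cdkal1 intron, at 5.51-fold in LV and up to 39.9-fold elsewhere.

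Sox11 lies at chr12:27334264-27342574 on the minus strand. Its E12.5 libraries had 45 and 57 interactions in FB, 52 and 54 in MB, 61 and 63 in HB, and 69 and 38 in NT. LM had 48 and 75, CF 22 and 23, and both LV libraries 0. Scaled, LM was the highest at 99.7 and 93.4, above FB at 63.2 and 91.7 without overlap. The pooled sets held 113 in LM, 114 in NT and 2 in LV. Of the LM and NT partners 83 were the same bins, 73.5% of the LM set.

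Sox11 had 167 distinct partner bins, the most of the 6 genes, and 88 of them formed 17 recurrent stretches that held 75.4% of its 1036 pooled interactions. Its partners reached the 1000-kb limit of the calls, so contacts beyond it would not be listed. One stretch, 760 to 880 kb downstream, holds the promoter of Cmpk2, a mitochondrial nucleotide kinase gene. The Cmpk2 bins were partners in 11 tissue-stages, with ratios of 2.78 to 8.44, and the adjacent antiviral gene Rsad2 was a partner in 3. The pair at +810 kb was the strongest of Sox11. At E12.5 its ratio was 11.2 in FB, 19.8 in MB, 16.0 in HB, 17.8 in NT, 14.0 in LM, 8.86 in CF and 5.79 in LV.
As for the Sox2 pair at +830 kb, the ratio of the +810 kb pair was higher in later FB libraries. Replicates 1 and 2 gave 10.6 and 10.2 at E12.5, 16.6 and 17.6 at E13.5, and 11.5 and 14.4 at E14.5. They gave 22.7 and 20.9 at E15.5, 20.8 and 24.7 at E16.5, and 24 and 28.9 at P0. The 6 later libraries again lay above the 6 earlier ones. Pooled read pairs were 91, 120, 106, 145, 178 and 121 from E12.5 to P0. The expected numbers were 8.16, 6.41, 7.65, 5.56, 7.42 and 4.37. This pair too was chosen for its high ratio, and no test was made on it.
The CTCF sites at both ends are shown, since their motifs face each other at the pair of Sox11 with the highest ratio.
Sox11 TSS bin, chr12:27342830-27342848, minus strand: aaacTGGCCAGGAGGCGGGGCTGgagg
Sox11 +810 kb bin, chr12:26533131-26533149, plus strand: gtacTGTCCACTGGGTGGCACTGttgc
The TSS bin site is intergenic, 265 bases upstream of the TSS, and carried the peak in 11 tissue-stages at 16.0- to 31.1-fold. In LV the peak was 6.58-fold, and its best motif was another one on the plus strand, 543 bases upstream. The +810 kb site was bound in all 12 tissue-stages at 24.8- to 67.2-fold, with the lowest value in LV.

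Sox12 lies at chr2:152393611-152398063 on the minus strand. Its 24 libraries had between 0 and 3 interactions and its 12 pooled sets between 0 and 4, with the highest number in NT. They joined 5 partner bins, and the only protein-coding TSS among these, that of 6820408C15Rik, was a partner at -30 kb in 3 tissue-stages. Sox12 fell under the minimum mean of 1 scaled interaction and was not tested. Its TSS bin was nevertheless bound by CTCF in 12 of 12 tissue-stages. The site bound in all of them is shown as that of the gene with the fewest interactions.
Sox12 TSS bin, chr2:152397224-152397242, minus strand: gggaGGACCTCTGGGGGGCGGCGcggc
The site lies in the coding exon, 813 bases downstream of the TSS, and its peaks ranged from 3.59-fold in LV to 30.3-fold.

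The neural tissues at E12.5 (FB, MB, HB and NT, 8 libraries) were compared with LM, CF and LV (6 libraries) to ask which genes had more interactions in neural tissue. The 3 SoxB genes had more. The mean scaled numbers were 28.2 against 5.21 for Sox1, 32.1 against 5.81 for Sox2 and 18.9 against 5.22 for Sox21. The log2 differences, of the scaled number plus 1, were 2.87 (SE 0.284, adjusted p = 5.91e-08 in limma) for Sox1, 3.57 (SE 0.139, adjusted p = 1.38e-14) for Sox2 and 2.28 (SE 0.313, adjusted p = 5.8e-06) for Sox21. The groups still overlapped for each of these genes, since CF libraries reached 15.8, 19.1 and 13.6 and the lowest neural libraries were at 13.1, 18.6 and 9.76.

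Sox4 and Sox11 passed the same test, with log2 differences of 0.52 (SE 0.136, adjusted p = 0.00397) and 2.02 (SE 0.139, adjusted p = 2.07e-10), but these calls rest on LV, and Sox4 lost its call with a minimum ratio of 3 (0.22, adjusted p = 0.209). Their mean scaled numbers were 43.2 against 42.5 for Sox4 and 60.3 against 42.7 for Sox11. Without LV, the difference was -0.35 for Sox4 (adjusted p = 0.0854) and 0.08 for Sox11 (adjusted p = 0.716). The SoxB genes kept their calls without LV, at 2.45 for Sox1, 2.87 for Sox2 and 1.96 for Sox21 (adjusted p = 5.41e-06, 7.51e-12 and 2.13e-04). All 5 genes tested were thus called higher, where 24.7% of the 5501 genes tested were called higher and 15.9% lower (40.6% in either direction). The p-values measure the spread between replicates. With the 7 tissue means as samples no member passed (adjusted p = 0.0575 for Sox1, 0.0777 for Sox2, 0.0835 for Sox21, 0.687 for Sox4 and 0.394 for Sox11).

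LV was compared with the mean of the other 6 tissues at E12.5, and all 5 genes had fewer interactions there than that mean. The SoxB genes were not lower in LV than in LM. Mean scaled numbers in LM were 1.25 for Sox1, 0 for Sox2 and 1.25 for Sox21. Mean scaled numbers in LV and the other tissues were 1.72 and 21.1 for Sox1, 2.58 and 14.8 for Sox21, and 7.99 and 48.8 for Sox4. The log2 differences were -2.88 for Sox1 (SE 0.401, adjusted p = 5.8e-06), -2.28 for Sox21 (SE 0.443, adjusted p = 2.62e-04) and -2.38 for Sox4 (SE 0.192, adjusted p = 2.15e-09). The LV libraries decide the sizes of Sox1 and Sox21: without LV replicate 2 these were -1.81 (adjusted p = 0.00409) and -0.97 (adjusted p = 0.104, the call lost), and without LV replicate 1 they were -4.01 and -3.65. Sox2 and Sox11 had no call in either LV library. Setting 3 interactions in each LV library as a floor, LV was lower than the mean of the other 6 tissues by at least 4.05-fold for Sox2. For Sox11 it was lower by at least 10.3-fold. In limma both passed (adjusted p = 8.07e-13 and 2.87e-15), and Sox11 had the smallest p of all genes, although the fitted differences of -4.01 and -5.87 depend on the pseudocount and are no bounds. Of all genes 27.2% were called lower in LV and 21.5% higher, 48.7% in either direction. LV also had the fewest interactions in all and the shortest, with a median distance of 170 kb in the pooled set against 270 to 310 kb elsewhere, and its part in these differences was not tested.

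FB was compared with MB, HB and NT at E12.5. Sox2 was the only gene of the 5 past the threshold, with mean scaled numbers of 49.1 and 26.4 (log2 difference 0.89, SE 0.211, adjusted p = 0.0129), where 1.84% of all genes were called higher in FB and 4.47% lower (6.31% in either direction). It lost the call without FB replicate 2 (0.73, adjusted p = 0.183), without scaling (0.28, 0.467), with DESeq2 (0.73, 0.135) and with a minimum ratio of 3 (0.74, 0.0537). The other differences were 1.04 for Sox1 (SE 0.429, adjusted p = 0.162), 0.70 for Sox21 (SE 0.474, adjusted p = 0.416), 0.67 for Sox4 (SE 0.205, adjusted p = 0.055) and 0.50 for Sox11 (SE 0.211, adjusted p = 0.172). Sox1 passed with edgeR (adjusted p = 0.0154), and Sox4 with TSS bins widened by 1 bin (0.0265) and without FB replicate 1 (0.94, 0.043). Without FB replicate 2 the differences were 0.39 for Sox4 and 0.23 for Sox11, and without FB replicate 1 that of Sox11 was 0.76. Without scaling Sox11 turned to -0.12 (adjusted p = 0.741). In scaled numbers, both FB libraries lay above all 6 libraries of MB, HB and NT for Sox1, Sox2, Sox21 and Sox4. They overlapped them for Sox11. How many of all genes separate in this way was not counted, so this is a description. Before scaling, FB overlapped MB, HB and NT for these genes too. The called numbers were 29 to 32 against 12 to 33 for Sox1, and 31 to 34 against 17 to 37 for Sox2. They were 16 to 19 against 10 to 25 for Sox21, and 35 to 45 against 33 to 46 for Sox4. The FB libraries held 18413 and 16075 interactions in all, and those of MB, HB and NT 21181 to 33700.

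**Figure D3:**
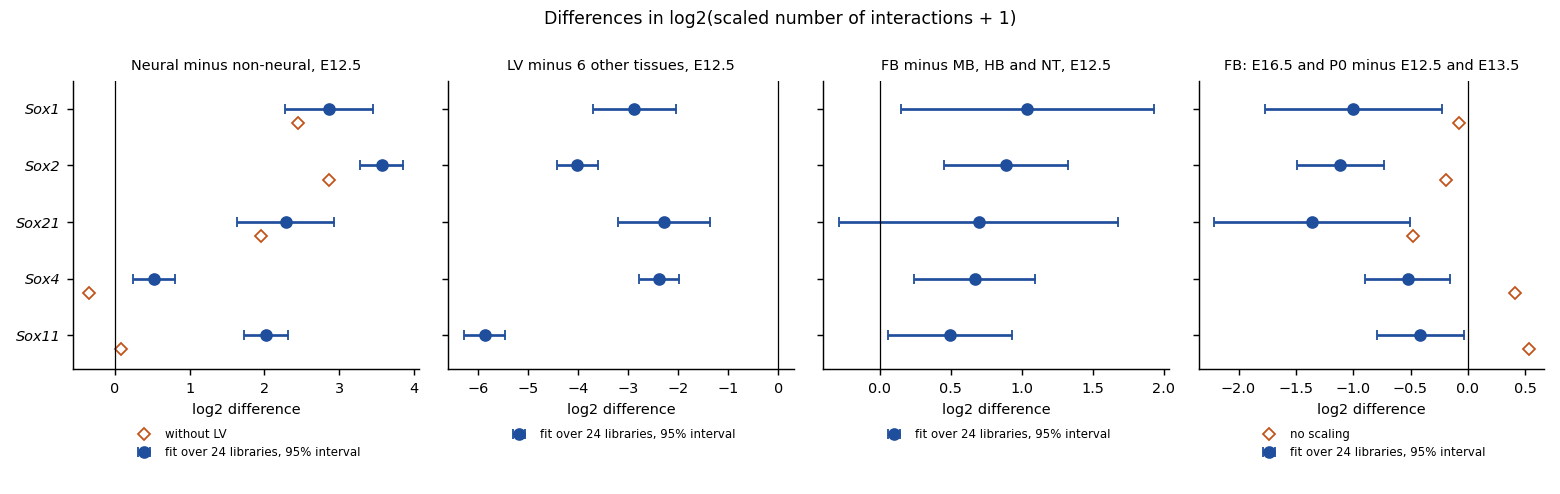
Differences in log2 of the scaled number plus 1 (x axis) for the 5 tested genes in 4 comparisons; circles and bars are the fitted difference and its 95% interval over 24 libraries. Open diamonds give the neural difference without LV and the FB stage difference without scaling. The diamonds of Sox4 in the neural panel and of Sox4 and Sox11 in the stage panel lie on the other side of 0 from their circles. Those of Sox11 in the neural panel (0.08) and of Sox1 in the stage panel (-0.07) lie next to 0.

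Late FB (E16.5 and P0, 4 libraries) was compared with early FB (E12.5 and E13.5, 4 libraries), which spans the change from mostly progenitors to mostly neurons. Relative to the library totals, Sox2, Sox21 and Sox4 were lower in late FB. Mean scaled numbers in late and early FB were 17.5 and 39.4 for Sox2, 8.31 and 22.5 for Sox21, and 36.1 and 51.2 for Sox4. The log2 differences were -1.11 (SE 0.182, adjusted p = 3.32e-04), -1.36 (SE 0.410, adjusted p = 0.0279) and -0.53 (SE 0.177, adjusted p = 0.0482). Sox1 had -1.0 (SE 0.371, adjusted p = 0.0717) and Sox11 -0.41 (SE 0.182, adjusted p = 0.132). Of all genes 6.27% were called lower and 9.16% higher (15.4% in either direction). In scaled numbers, the late libraries lay below all early ones for Sox1, Sox2 and Sox21, and overlapped them for Sox4 and Sox11. The share of all genes that separate in this way was not counted here either. Before scaling, late and early libraries overlapped for these 3 genes as well. The called numbers were 31 to 34 late and 29 to 39 early for Sox1. They were 23 to 34 and 29 to 38 for Sox2, and 10 to 17 and 16 to 22 for Sox21.

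These directions depend on the scaling. The late libraries held 35291 to 63868 interactions and the early ones 16075 to 30876, so scaling lowers the late numbers. Without scaling, the median gene rose by 0.83 on the log2 scale. Sox4 and Sox11 were then higher in late FB in limma (0.41, adjusted p = 0.0487, and 0.53, adjusted p = 0.022). Sox2 and Sox21 fell short of the threshold (-0.19, adjusted p = 0.432, and -0.48, adjusted p = 0.276). Sox1 was at -0.07 (adjusted p = 0.849). The pooled sets, with 1 value per stage and no test, gave log2 differences of -0.36 for Sox1, -1.09 for Sox2, -1.02 for Sox21, -0.49 for Sox4 and -0.22 for Sox11 when scaled to their totals. Unscaled, these were 0.05, -0.68, -0.62, -0.07 and 0.20. Sox2 and Sox21 were lower in late FB in each of these versions. Calls of Sox21 and Sox4 were close to the threshold: Sox21 lost its call in each of the 8 fits that left out 1 FB library, and Sox4 in 6 of them, all but those without E12.5 replicate 1 and without E16.5 replicate 1 (adjusted p up to 0.0816 and 0.192).

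**Figure D4:**
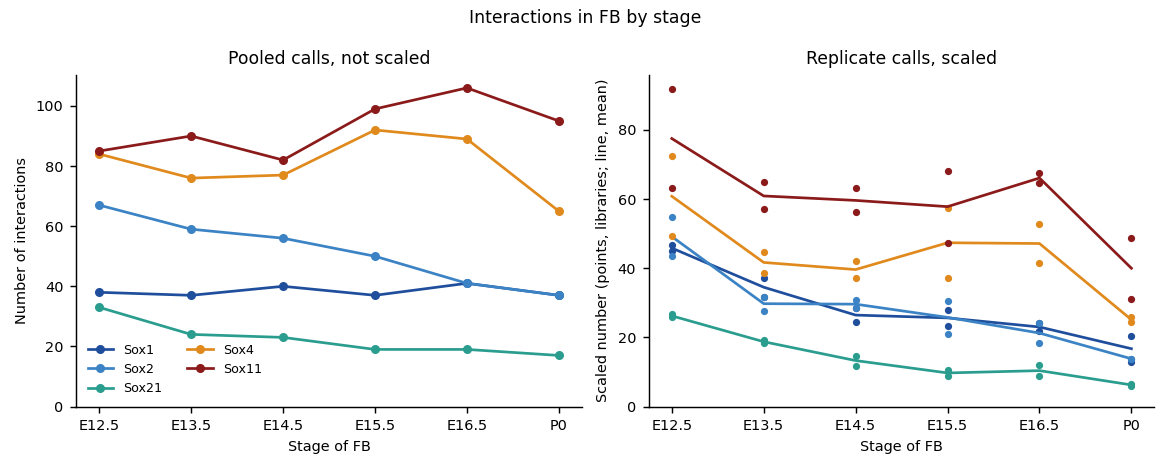
Number of interactions in the pooled sets, not scaled (left) and scaled numbers in the replicate libraries (right, points are libraries and lines are means of 2) by FB stage for 5 genes. Sox2 goes from 67 to 37 in the pooled sets and Sox21 from 33 to 17, while Sox1 stays between 37 and 41 and Sox11 between 82 and 106.

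The partners called in early and late FB were then set side by side. For Sox11, of 109 early and 118 late partner bins, 88 were shared, and 43 were called at all 6 stages. Partners called at both late stages and neither early stage numbered 16, of which 15 lay upstream, up to 1000 kb away. They were 13.6% of the late Sox11 partners, against 9.59% of the late interactions of all TSS bins. Those called at both early stages and neither late one numbered 4, all downstream, 3.67% of the early ones against 3.85% for all. For Sox2 the 8 early partners of this kind were 9.2% and the 2 late ones 3.77%. The late pooled sets held more calls in all (66050 and 79677) than the early ones (51264 and 57174), and none of these shares was tested. Sox4 had 2 early and 3 late partners of this kind (2.02% and 3.09%), the late ones all upstream, and 37 bins at all 6 stages. Sox1 kept 25 bins at all 6 stages and had 1 late partner of this kind, Sox21 kept 9, and Sox2 kept 15.

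The partners of these genes recurred across tissues. At least 6 tissue-stages called 57.1% of the Sox1 partner bins, 36.4% of Sox2, 44.4% of Sox21, 55.9% of Sox4 and 56.3% of Sox11, against 17.0% of the 180478 distinct interactions of all TSS bins. Partners called in a single tissue-stage made up 9.58 to 22.4% for these 5 genes, against 46.3% for all. Neighbouring bins are not independent, and these shares were not tested. Many partners seen in CF were also called in FB at E12.5: 18 of 20 CF partners of Sox1, 27 of 30 of Sox2, 17 of 19 of Sox21, 54 of 62 of Sox4 and 46 of 75 of Sox11. These are 47.4%, 40.3%, 51.5%, 64.3% and 54.1% of their FB partners. In LM 66 of 84 Sox4 partners and 65 of 113 Sox11 partners were FB partners too. Over all TSS bins FB shared 37.4% of the CF and 35.8% of the LM interactions. These were 45.7% and 42.2% of the FB interactions. As a share of FB partners, Sox1 was thus close to all TSS bins in CF, and Sox2 lay below them. Between replicates, the share of interactions found in both (of their mean number, over tissue-stages with at least 20 in sum) had a median of 80.0% for Sox1, 68.8% for Sox2, 74.3% for Sox21, 65.8% for Sox4 and 67.6% for Sox11, against 55.2% over all interactions.

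Distances were long for 3 of the genes. The median over tissue-stages was 550 kb for Sox2, 487.5 kb for Sox4 and 560 kb for Sox11, against 270 to 310 kb for all interactions outside LV, and it was 260 kb for Sox1 and 310 kb for Sox21. With the minimum ratio raised from 2 to 3 these medians became 670, 590 and 635 kb for Sox2, Sox4 and Sox11, and 332.5 kb for Sox1. The partner bins seldom held the TSS of a protein-coding gene: 5.36% for Sox1, 4.67% for Sox2, 13.3% for Sox21, 2.94% for Sox4 and 2.4% for Sox11, against 22.5% for all interactions of TSS bins.

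CTCF binds DNA through a directional motif and can hold loops whose ends carry motifs that face each other. A partner bin counted as bound where it held the midpoint of a CTCF peak with a motif. Partner bins of these genes were bound less often than those of TSS bins in general. The mean over tissue-stages with at least 10 interactions was 21% ± 4.42 for Sox1 (SD, n = 10), 20.7% ± 5.09 for Sox2 (n = 10), 27.6% ± 7.28 for Sox21 (n = 10), 14.5% ± 8.47 for Sox4 (n = 12) and 10.6% ± 2.9 for Sox11 (n = 11). All interactions of TSS bins gave 47.4% ± 3.24 (n = 12), and each of the 5 genes lay below that in every tissue-stage counted. The tissue-stages share partner bins and CTCF sites, so they are not independent and no test was made.

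Promoters often carry CTCF, and few partners here hold one, so the shares were also taken over partner bins without a protein-coding TSS. They were then 21.4% for Sox1, 20.8% for Sox2, 29.4% for Sox21, 13.7% for Sox4 and 9.48% for Sox11, against 40.0% for all. Sox21 lay below all in 9 of 10 tissue-stages and the others in each. For Sox4 the share in LV was 40.0%, from 4 of 10 interactions, against 8.54 to 17.6% in the other tissue-stages. The TSS bins themselves were bound in all 12 tissue-stages for Sox1, Sox4, Sox11 and Sox12. Interactions with motifs at both ends were summed over tissue-stages. Of these, 56 of 108 (51.9%) for Sox11 had motifs that face each other, as at the +810 kb pair shown above. The counts were 20 of 71 (28.2%) for Sox1, 5 of 12 (41.7%) for Sox2, 9 of 33 (27.3%) for Sox21 and 24 of 106 (22.6%) for Sox4. The share over all TSS bins was not taken. Each bound end was given a single direction, although a bin can hold sites on both strands, as the Sox1 +170 kb bin does. The same pair counts once per tissue-stage in these sums.

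**Figure D5:**
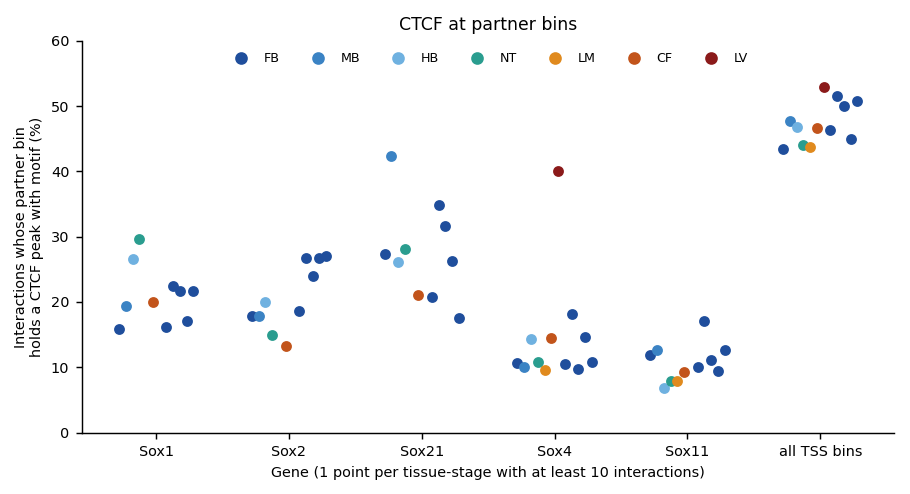
Share of interactions whose partner bin holds a CTCF peak with a motif (y axis, percent) by gene, with all TSS bins at the right; each point is a tissue-stage with at least 10 interactions, coloured by tissue. All points of the 5 genes lie at or below 42.3%, and those of all TSS bins between 43.4 and 52.9%.

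The genes whose scaled numbers ran most like those of each member, over the 24 libraries, were taken from 2576 genes with a mean of at least 3 and not within 2 Mb. They were Cux2, Six3 and Pou3f1 for Sox1 (Pearson r = 0.957, 0.954 and 0.953), Lhx5, Pax6 and Nr2f1 for Sox2 (0.972, 0.971 and 0.965), and Sox1, Lemd2 and Cux2 for Sox21 (0.935, 0.93 and 0.913). For Sox4 they were Rab33b, Zmiz1 and Zfp608 (0.947, 0.943 and 0.92), and for Sox11 Rab33b, Sox9 and Setbp1 (0.975, 0.971 and 0.963). The libraries share their tissue, and much of the likeness of the SoxC genes rests on LV: over the 22 other libraries the values for Sox11 were 0.79, 0.738 and 0.812, and those for Sox2 were 0.953, 0.952 and 0.942. Between members, the SoxB genes ran together (r = 0.884 to 0.942), as did Sox4 and Sox11 (0.915). SoxB with SoxC genes gave 0.21 to 0.567 with LV, but -0.47 to -0.243 without it.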

How the data were processed

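Interaction calls for 24 PLAC-seq libraries and for 12 pooled sets, and lists of CTCF peaks, were analysed. Per the file headers and the paper's methods, the authors mapped reads to mm10 and gave each called pair of bins a count of read pairs, an expected signal from the MAPS model and an FDR, a q-value, all of which were deposited. Pairs passed at an FDR under 1% and a ratio of at least 2, from 20 kb to 1 Mb, on 19 autosomes. For CTCF, the authors called peaks with MACS2 on pooled libraries, kept those found again in both, and deposited each with its fold over input. The P0 list rests on 1 library, and CTCF was repeated only technically in LV and E14.5 FB.

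Genes and sites were placed with GENCODE release M21 on GRCm38. Numbers of interactions per gene, which are counts of called pairs and not of reads, were given 1 pseudocount after scaling, taken to log2 and tested with limma 3.58.1 (trend option) for the 5501 genes whose mean reached 1, in 1 fit of 12 tissue-stages with 12 residual degrees of freedom; p-values were adjusted by Benjamini-Hochberg at 0.05. Pair counts, distances and CTCF shares are descriptions. The CTCF matrix of 19 bases was estimated from the 5000 strongest FB peaks, with a chance of 0.0001 of a match per position; 88.9 to 95.2% of peaks held a motif, and 7.0% of 2000 random sequences did. Alternatives were another scaling, no filter, a pseudocount of 0.5, wider TSS bins, a ratio of 3, edgeR 4.0.16, DESeq2 1.42.0, a replicate block, tissue means as samples, leaving out LV or each library, a second list of peaks, all peaks and peak summits. Unscaled pooled numbers and likeness without LV were added after the data were seen. Python 3.11.15 and R 4.3.3 were used.

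On simulated data for the neural comparison (5501 genes), 98% of planted 4-fold and 49% of 2-fold changes were recovered, but 19.67% of the calls were false, above the 5% aimed at; among genes with a mean of at least 10 it was 12.5% (6 of 48 calls), so calls close to the threshold are less certain than their adjusted p. The members and lists were chosen with earlier results of these data known. Partner genes named are up to 5 per member, by tissue-stages with the pair and then distance; like genes are the 3 with the highest r; list genes are up to 4 per direction by adjusted p, of which 1 is not reported here. Pairs described are those of the highest ratios. Input libraries and contact maps were not analysed here.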

Additional observations from a re-analysis of the deposited data

Results flagged for a closer look

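Among 36 groups of 4 to 10 libraries examined, 5 held a library far from the others by the gap at the end of the group's range. Chance gives about 1 in 20 for independent groups of like libraries. These groups mix tissues and share libraries, so the 5 show no excess over chance. In NT at E12.5, replicate 1 had 13.1 scaled Sox1 interactions against 21.7 to 26.4 in the other libraries of MB, HB and NT. The same library had the highest Sox11 value of those 6, at 75.4 against 46.4 to 56.3. FB at E12.5 replicate 2 had the highest Sox4 value of the 8 neural libraries, at 72.4 against 32.2 to 49.2. NT replicate 2 had 3.66 scaled Sox12 interactions, from 3 called ones, against 0 to 1.61 in the other neural libraries and 0 to 1.09 in the others of MB, HB and NT.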

How the results depend on the processing

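The numbers of genes called moved by more than 1.5 times as follows, and the cause was not tested. For neural tissue 2231 became 1167 with edgeR, 915 with DESeq2 and 142 with tissue means as samples. For late FB 849 became 2493 without scaling, 1456 without the filter, 1298 with TSS bins widened by 1 bin and 329 with DESeq2. For FB 347 became 599 without scaling, 81 with edgeR and 45 with DESeq2. For LV 2680 became 1370 with edgeR and 694 with DESeq2. Leaving out 1 library gave 2005 to 2205 for neural tissue, 475 to 700 for late FB (538 without E13.5 replicate 2, 475 and 476 without E16.5 replicate 2 and P0 replicate 1, 533 without P0 replicate 2), 120 (without FB replicate 2) to 350 for FB and 1663 (without LV replicate 2) to 2763 for LV. Higher and lower calls were 1357 and 874 for neural tissue (1861 and 270 without scaling, 1750 and 413 with TMM), 504 and 345 for late FB (2441 and 52, 709 and 264), 101 and 246 for FB (21 and 578, 70 and 386) and 1182 and 1498 for LV (374 and 1580, 518 and 1667).

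Direction turned for Sox4 in neural tissue without liver (-0.35), and without scaling for Sox4 (0.41) and Sox11 (0.53) in late FB and for Sox11 in FB against the other neural tissues (-0.12). Sox11 in late FB was at 0.0011 with DESeq2 and at -0.26 without P0 replicate 1. The median distance with a ratio of at least 3 was 332.5 kb for Sox1 (main 260), 670 for Sox2 (550), 590 for Sox4 (487.5) and 635 for Sox11 (560). With all CTCF peaks the Sox1 share was 26.9%. For FB, Sox2 missed the threshold with DESeq2 and with a ratio of 3. In late FB, Sox1 passed with edgeR (-1.04, adjusted p = 1.8e-04), Sox11 with wider TSS bins (0.0259), and Sox4 missed the threshold with TMM (adjusted p = 0.143) and DESeq2 (0.776). In limma without the filter, Sox4 (0.0531) and Sox21 (0.0613) missed it, as they did with a pseudocount of 0.5 (0.0529 and 0.0908). Sox21 also missed it with a ratio of 3 (0.129). Sox2 in LV missed it with edgeR, where both libraries are at 0. Same-numbered replicates did not deviate together (r from -0.0654 to 0.0443 over 21 pairs of tissues and -0.0418 to 0.0837 over 15 pairs of FB stages), so they share only a number. With the replicate block, Sox4 in late FB stayed at -0.53 with an adjusted p of 0.0545, and no other member's call changed. Numbers under about 3 in a library, as for Sox12, cannot show a difference.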

Other observations

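Other Sox genes were tested in the same fits, with Sox14, Sox15, Sox5, Sox6, Sox13, Sox8, Sox9, Sox10, Sox7, Sox17, Sox18 and Sox30 listed and 7 of these 12 above the minimum mean. Sox9, a regulator of neural stem cells, glia and cartilage, and Sox14, the other SoxB2 gene, had more interactions in neural tissue at E12.5 (log2 differences 1.5 and 2.16, limma adjusted p = 8.21e-08 and 2.42e-04), and none of the 7 had fewer. The mean scaled numbers of Sox14 were 7.68 in neural and 0.454 in non-neural tissue. Those of Sox9 were 24.05 and 16.39, with 0 in LV and 24.23 over the 6 tissues other than LV. For Sox9 the neural mean was thus close to the mean of those 6, and the difference without LV was not tested. In late FB, Sox5, a SoxD gene of cortical projection neurons, rose (1.62, adjusted p = 0.013). Sox6, Sox9 and Sox13 fell (-0.955, -0.951 and -0.827, adjusted p = 7.11e-04, 0.00281 and 0.0216), relative to the library totals. Without scaling these were -0.0121, -0.0322 and 0.0384 and none passed, while Sox5 kept its call. FB exceeded the other neural tissues for Sox6 and Sox9 (1.09 and 1.15, adjusted p = 0.00164 and 0.0038), which fell short of the threshold without scaling (adjusted p = 0.0747 and 0.2). In LV, Sox6, which acts in red cell maturation, and Sox15 were higher (0.529 and 1.25, adjusted p = 0.0209 and 0.0469), but neither passed without scaling or with TMM scaling, where Sox6 turned to -0.169 and -0.0816. Meanwhile Sox9, Sox8, Sox14 and Sox5 had no call in either LV library and passed the test as lower, Sox5 only with the scaling to totals. The median log2 difference of the 7 genes was 0.406 in neural tissue against 0.122 over all genes, -0.827 in late FB against 0.128, 0.638 in FB against -0.181 and -1.12 in LV against -0.247.

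Of 20 neural progenitor genes linked to SoxB factors, 17 were tested. In neural tissue 8 were higher, led by Pax6 (34.4 against 2.32 scaled interactions), Pou3f2 (28.1 against 0.239), Pou3f3 and Pou3f1, and Hes1 and Ccnd1 were lower (-0.646 and -0.772). Neither of the latter passed without scaling or with TMM, which gave 10 higher and 0 lower in limma. In late FB 10 of the 17 were lower and 0 higher in limma, led by Pax6 (13.5 against 47.8), Hes1, Ccnd1 and Pou3f2, and the median difference was -1.0 against 0.128 over all genes. With TMM 9 were lower, and without scaling 2, with a median of -0.161 against 0.83 over all genes. FB exceeded the other neural tissues for 7, led by Lhx2 (127.2 against 35.5) and Gli3, and for 2 without scaling. In LV 9 were lower and 1, Ccnd1, was higher, against 13 and 0 without scaling or with TMM.

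Of 20 neuronal genes linked to SoxC factors, 13 were tested. In neural tissue 10 were higher and 0 lower, among them Insm1 (7.44 against 1.40), Prox1 and Ncam1, with a median difference of 1.54. In late FB the list was split. Map2, Neurod1 and Ncam1 rose (1.84, 1.38 and 1.14), and Neurog2, which acts at the start of neurogenesis, fell (-1.06). Without scaling, where 15 of the list passed the filter, 5 were higher and 0 lower in limma, and Neurog2 had an adjusted p of 0.471. In FB 3 were lower than in the other neural tissues, namely Neurod1, Ncam1 and Pou4f1, and in LV 7 were lower. These lists were chosen with earlier results of these data known, and their counts are descriptions. They stand beside 24.7% of all genes called higher and 15.9% lower in neural tissue, 9.16% and 6.27% in late FB, 1.84% and 4.47% in FB, and 21.5% and 27.2% in LV.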
